A study of Mus musculus with 6 samples.

Results

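Platelet-derived growth factors (PDGFs), fibroblast growth factors (FGFs) and their receptor tyrosine kinases were described in a pre-osteoblast line of the mouse, 2T3. The genes were chosen by name, with earlier results of these data known. They were 10 ligand and receptor genes, Pdgfa, Pdgfb, Pdgfra, Pdgfrb, Fgf2, Fgf7, Fgf18, Fgfr1, Fgfr2 and Fgfr3. All 10 had exactly 1 probe with that single gene symbol, out of 8588 genes with a tested probe. The study profiled total RNA from 3 samples of 2T3 cells exposed to simulated microgravity on a Random Positioning Machine and from 3 static control samples, with 1 expression array per sample. Both groups grew in OptiCells, closed culture cassettes with gas-permeable walls. The Random Positioning Machine keeps turning the cassettes so that over time gravity acts from every side. The static cassettes stayed still, so motion of the cells and medium and the averaging of gravity cannot be told apart. All samples came from the same clonal line, so they hold no spread between animals. How long the cells were exposed was not stated in the labels.

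PDGFs are secreted as dimers of A or B chains, or of the related C and D chains, and bring PDGF receptor alpha and beta chains together at the cell surface. FGFs bind FGF receptors with heparan sulfate chains of cell-surface proteoglycans as a co-receptor. Both kinds of receptor signal through RAS and ERK and through PI3 kinase, and both switch on genes that dampen the signal. In bone, PDGF signalling is known for recruiting mesenchymal progenitors and FGF signalling for controlling their proliferation and maturation, with Fgf18 and the receptors Fgfr1, Fgfr2 and Fgfr3 acting in skeletal development.

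Between 10337 and 10432 probes had a value on each array. On the second array of each group fewer values lay under 0.1 of the array median (6.44% on microgravity 2 and 9.16% on static 2, against 17.1% to 19.8% on the other 4). The cell type was checked against osteoblast genes. Of 15 listed, 10 had a probe, and 5 of these (Col1a1, Col1a2, Sparc, Omd and Postn) were above the array median on all 6 arrays, while the late bone genes Ibsp, Phex and Dmp1 were below it on all 6. Runx2, Sp7, Bglap, Bglap2 and Spp1 had no tested probe under those symbols. No list of fibroblast genes was used, so the check cannot tell osteoblasts from fibroblasts. The summed intensity of the 10 was 212 to 273 times the array median in simulated microgravity, against 395 to 520 in static cells. Sums here and for the other marker lists are set mostly by their brightest probes and are not a level of the list. Alpl, the alkaline phosphatase of early osteoblasts, fell 4.74-fold and Pth1r, the parathyroid hormone receptor, fell 5.05-fold (limma adjusted p = 0.0295 and 0.0194). Omd, a proteoglycan of mineralised matrix, was the third of the 10 to pass, also lower (log2 change -2.47), and 7 did not pass. Among all tested probes 0.187% passed with lower values. Of the 10, 6 (60%) were lower without overlap, against 8.07% of all genes tested. Ibsp, Dmp1 and Phex had log2 changes of -0.05, -0.18 and 0.11. The part of the lower osteoblast genes in the results on growth factor genes was not tested. In bulk RNA, fewer cells of a type and less RNA per cell cannot be told apart.

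Promoter windows of RefSeq on GRCm38.p6 were matched to 7 of the 10 genes, giving 9 windows of the 250 bases before an annotated start. Fgfr1, Pdgfb and Pdgfrb are not shown. The windows of Pdgfra and Fgfr3, receptors whose groups did not overlap, and of Fgf7, a ligand whose groups did overlap, are given. None (0) of these 3 genes passed the threshold of the test below. All read 5′ to 3′ on the + strand. Pdgfra lies at chr5:75152001-75152250, Fgfr3 at chr5:33721474-33721723, the upstream of its 2 windows, and Fgf7 at chr2:126034408-126034657. Capitals mark matches on either strand to the TATA box TATAAA, the CCAAT box CCAAT, the GC box GGGCGG, the AP-1 site TGANTCA or the ETS core CCGGAAGT.
Pdgfra: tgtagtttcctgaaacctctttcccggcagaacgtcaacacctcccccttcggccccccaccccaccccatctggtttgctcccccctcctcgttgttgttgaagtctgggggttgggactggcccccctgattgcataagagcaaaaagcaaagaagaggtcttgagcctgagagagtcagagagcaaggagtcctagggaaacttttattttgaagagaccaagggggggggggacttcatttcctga
Fgfr3: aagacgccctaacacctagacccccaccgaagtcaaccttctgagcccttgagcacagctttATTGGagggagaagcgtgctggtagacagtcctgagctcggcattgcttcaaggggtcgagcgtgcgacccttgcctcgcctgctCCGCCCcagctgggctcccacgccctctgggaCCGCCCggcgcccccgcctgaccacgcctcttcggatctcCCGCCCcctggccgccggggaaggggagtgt
Fgf7: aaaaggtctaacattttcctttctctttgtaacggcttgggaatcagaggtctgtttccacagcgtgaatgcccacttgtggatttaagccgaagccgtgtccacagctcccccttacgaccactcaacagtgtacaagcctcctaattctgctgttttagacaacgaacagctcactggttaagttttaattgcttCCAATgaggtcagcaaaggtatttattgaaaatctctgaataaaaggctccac
The Pdgfra window held 0 of these motifs and 54.4% G or C. The Fgfr3 window held 3 GC boxes and 1 CCAAT box, with 66.8% G or C. The Fgf7 window held 1 CCAAT box and 43.6% G or C. Among 32851 promoter windows of the same length, 32.7% held a GC box, 33.9% a CCAAT box, 12.4% a TATA box, 6.75% the AP-1 site and 2.88% the ETS core, and the median G or C content was 52.4%. None of these motifs overlaps another in the 3 windows shown. A match is a run of letters and not a shown binding site.

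Values below are intensities divided by the array median, so that 1 is the median probe of an array. Apart from the sums of marker lists and a difference of Pdgfra and Pdgfrb within each array, they are set against the same probe only. Intensities of different probes are not comparable. Fold changes come from mean log2 values, simulated microgravity over static, with a floor at 0.1 of the median under which 0 of the member values lay. None (0) of the 10 genes passed the threshold of an adjusted p under 0.05 in limma's moderated test, fitted across 10146 probes, of which 0.276% passed, 0.187% lower and 0.0887% higher. With any 1 of the 6 arrays left out 0 probes passed (limma, 761 to 968 at an unadjusted p under 0.05), Alpl, Pth1r and the other called genes included. At an unadjusted p under 0.05 there were 3 of 10, Pdgfra, Pdgfrb and Fgfr3, against a background of 11.5% of genes. All 3 were receptors with lower values in simulated microgravity and no overlap between groups, against a background of 8.07% of genes with lower and non-overlapping values and 8.51% with higher ones. Of all 8588 genes tested, 3731 had a log2 change below 0 and 4857 above. The 10 genes had a median log2 change of -0.27, against 0.05 for all genes tested, with 8 of 10 below 0. That median ran from -0.48 without the second array of both groups to -0.099 with the floor at 0.2 of the median. It was -0.44 without microgravity 2. The 10 genes and the gene lists were chosen with earlier results of these data known, so contrasts with all genes are descriptive only.

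**Figure D1:**
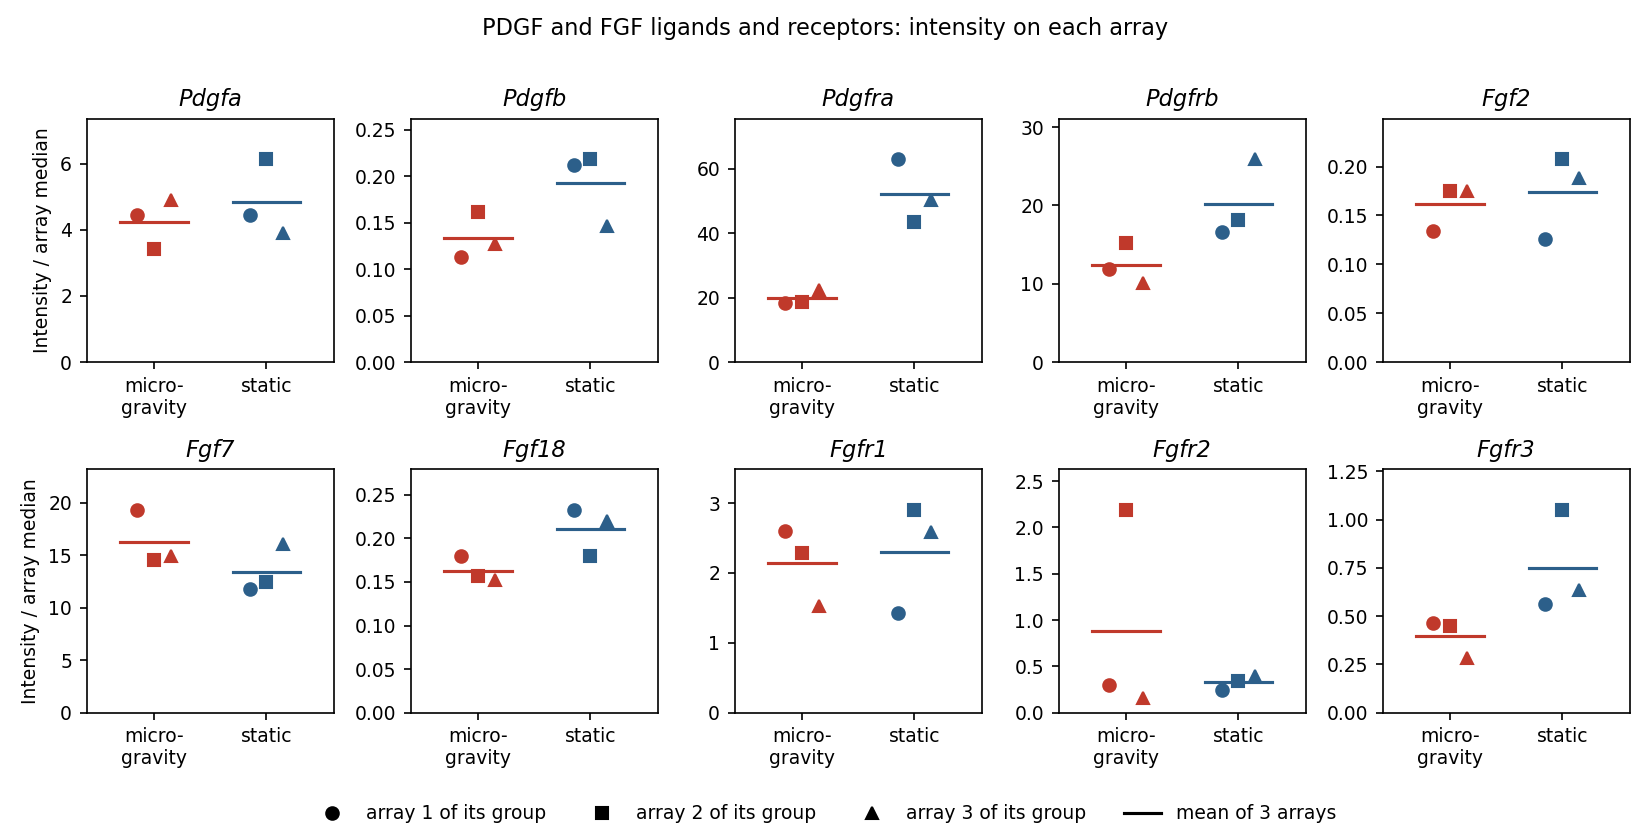
Intensity over the array median (linear axis from 0, a scale of its own in each panel) for each of the 10 genes, with simulated microgravity in red on the left and static in blue on the right. Points are single arrays, with a marker shape for each array number that pairs nothing, and lines are means of 3 arrays. Pdgfra, Pdgfrb and Fgfr3 show no overlap between groups, and Fgfr2 shows 1 microgravity array at 2.19 far above the other 5.

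Pdgfra, the receptor chain that binds PDGF-A, PDGF-B and PDGF-C and a marker of mesenchymal progenitors, had the smallest p of the 10. Its intensity was 18.4, 18.7 and 22.3 times the array median in the 3 microgravity samples, against 62.9, 43.6 and 50.2 in the 3 static samples. Every microgravity array thus lay under every static array. The groups averaged 19.8 ± 2.16 in simulated microgravity and 52.2 ± 9.80 in static cells (SD, n = 3 each), a 2.62-fold lower mean. The log2 change was -1.39 (SE 0.18, 95% interval -1.82 to -0.95), with a limma adjusted p = 0.0521, just outside the threshold. By p it stood at rank 25 of the 8588 genes. It passed in 10 of 20 alternatives, with limma adjusted p between 0.0153 and 0.0399 where 0.286% to 1.13% of all probes passed. It did not pass in the fit without an intensity trend (0.0604), the mean of all probes of a gene (0.0519), the replicate number as a block (0.270), and every setting with arrays left out (0.144 to 0.284).

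Pdgfrb, the receptor chain for PDGF-B known from pericytes and mesenchymal cells, had 11.8, 15.2 and 10.1 in simulated microgravity, against 16.6, 18.1 and 25.9 in static cells. The groups did not overlap, but the highest microgravity value and the lowest static value were close. The means were 12.4 ± 2.63 in simulated microgravity and 20.2 ± 4.99 in static cells (SD, n = 3 each). The log2 change was -0.70 (SE 0.23, 95% interval -1.25 to -0.15, limma adjusted p = 0.322), which did not pass. The alpha chain was set against the beta chain by the log2 difference of the pair within each array. Only the shift of this difference between groups is read, since its level mixes 2 probes and does not rank the chains. The difference ran from 0.29 to 1.15 in simulated microgravity, against 0.96 to 1.92 in static cells, a shift of -0.69 (exact permutation test over the 6 arrays, two-sided p = 0.2, 1 comparison). The smallest p that 3 arrays against 3 allow is 0.1, so this test could not have passed 0.05, and it does not settle whether the chains changed unequally. The groups overlapped in this difference.

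Both PDGF ligands overlapped between groups. Pdgfa, which encodes the A chain, had 4.44, 3.41 and 4.89 in simulated microgravity, against 4.46, 6.14 and 3.90 in static cells, and the groups overlapped. Its log2 change was -0.18 (95% interval -0.71 to 0.36, limma adjusted p = 0.893), and it was 0.01 when static 2, the highest array, was left out. Pdgfb, which encodes the B chain, was dim in both groups, at 0.113, 0.161 and 0.127 in simulated microgravity, against 0.213, 0.218 and 0.146 in static cells. Here static 3 lay among the microgravity values (log2 change -0.52, 95% interval -1.05 to 0.02, limma adjusted p = 0.482). A change of Pdgfb could be understated or missed this close to the floor.

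Among FGF receptors, Fgfr3, known as a brake on cartilage growth in the growth plate, was the one without overlap. It had 0.464, 0.449 and 0.284 in simulated microgravity, against 0.563, 1.05 and 0.637 in static cells. Only static 2 exceeded the array median. The log2 change was -0.89 (SE 0.33, 95% interval -1.69 to -0.09, limma adjusted p = 0.398), which did not pass, and it lay between -1.07 and -0.53 in the 19 alternatives that measured it. Fgfr1, a receptor of mesenchymal progenitors and osteoblasts, had 2.59, 2.29 and 1.53 in simulated microgravity, against 1.43, 2.90 and 2.58 in static cells. Each group held 1 low array, microgravity 3 and static 1, and the groups overlapped nearly whole. The log2 change was -0.08 with a 95% interval of -0.87 to 0.71 (limma adjusted p = 0.979), so changes of either sign up to those bounds were not resolved.

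Fgfr2, a receptor of osteoblast precursors, had 0.303, 2.19 and 0.163 in simulated microgravity, against 0.247, 0.343 and 0.400 in static cells. Microgravity 2 stood far above the other 5 arrays, which all lay under the array median. The log2 change of 0.56 had the widest interval of the 10 genes (95% interval -1.59 to 2.70, SE 0.90, limma adjusted p = 0.919). Without microgravity 2 it was -0.54, so that 1 array decides the sign. Microgravity 2 is also one of the arrays with few dim values, and whether that bears on Fgfr2 was not tested.

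Of the FGF ligands, only Fgf7 was above the array median. Fgf7, a ligand made by mesenchymal cells that acts on the epithelial form of Fgfr2, had 19.3, 14.5 and 14.9 in simulated microgravity, against 11.7, 12.4 and 16.0 in static cells. The groups overlapped through static 3. The means were 16.3 ± 2.64 in simulated microgravity and 13.4 ± 2.31 in static cells (SD, n = 3 each; log2 change 0.28, 95% interval -0.16 to 0.72, limma adjusted p = 0.761). Its log2 change stayed above 0 in all 20 alternatives, from 0.15 to 0.41, and passed in 0 of them.

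Fgf18, a ligand for bone and cartilage growth, was dim, at 0.180, 0.156 and 0.152 in simulated microgravity, against 0.233, 0.179 and 0.220 in static cells. Its groups touched only where microgravity 1 met static 2 (log2 change -0.37, 95% interval -0.78 to 0.05, limma adjusted p = 0.551). Fgf2, a ligand of many FGF receptors and a mitogen for osteoblast precursors, was also dim, at 0.134, 0.175 and 0.175 in simulated microgravity, against 0.126, 0.208 and 0.188 in static cells. These values overlapped nearly whole (log2 change -0.09, 95% interval -0.65 to 0.48, limma adjusted p = 0.969). With no detection call in the deposited table, these low intensities could not be told from background.

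**Figure D2:**
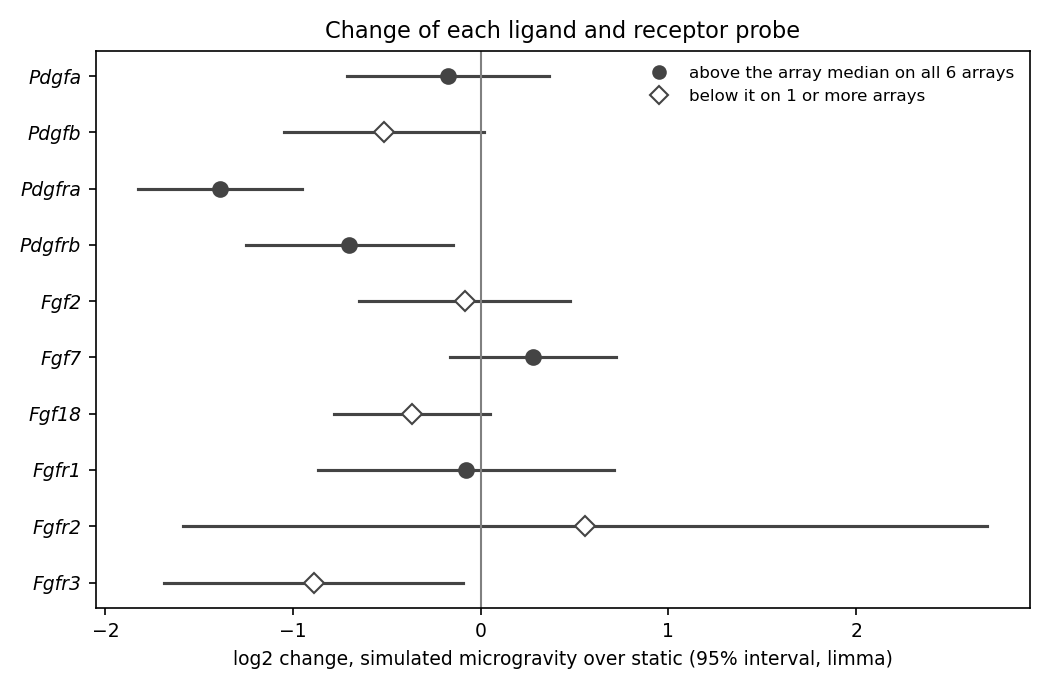
Log2 change of each gene's probe, simulated microgravity over static, with its 95% interval from limma (horizontal axis, log2 scale); filled circles are probes above the array median on all 6 arrays and open diamonds are below it on at least 1. The intervals of Pdgfra, Pdgfrb and Fgfr3 lie below 0 and the Fgfr2 interval runs from -1.59 to 2.70.

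Levels relative to the array median placed Pdgfra, Pdgfrb, Fgf7, Pdgfa and Fgfr1 above 1 on all 6 arrays. Fgfr2 and Fgfr3 were above it on 1 array each, and Pdgfb, Fgf2 and Fgf18 stayed between 0.113 and 0.233. Arrays of this kind do not allow abundance to be ranked between genes.

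The genes whose log2 values followed Pdgfra most closely over the 6 arrays were sought among 4355 other genes brighter than the median. They were the collagen VI chain Col6a3 (Pearson r = 0.995), the tetraspanin Cd9 (0.995), the cholesterol synthesis enzyme Cyp51 (0.990), the receptor activity modifying protein Ramp2 (0.990) and the matrix proteoglycan Ogn (0.989). Of these, Col6a3 and Ogn passed the threshold, both lower, with log2 changes of -2.16 and -1.38, while the log2 change of Cd9 was only -0.33. The closest genes to Pdgfrb were Mvp, the major vault protein (0.981), Tmem9b (0.974), Paqr4 (0.973), the collagen V chain Col5a2 (0.969) and the protease gene Capn2 (0.966), with 0 of 5 past the threshold. The 2 sets share 0 genes, but sets of 5 out of 4355 are too small for this to set the receptors apart. The correlation of Cd9 with Pdgfra was 0.925 with quantile and 0.944 with cyclic loess normalization, so its likeness depends on the scaling. These correlations describe 6 arrays that share a group difference and a common scaling.

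Other genes of these pathways were counted from lists by role. The background for counts of signs in these lists is 4857 of 8588 genes above 0 and 3731 below. Of 16 further genes of the PDGF and FGF ligand families with a probe, 1 passed, 1 higher and 0 lower. Among all tested probes 0.0887% passed with higher values and 0.187% with lower ones. The median log2 change of the 16 was 0.19, with a range of 0.048 to 0.22 over the alternatives and 0.051 without static 2. The list went by family name. It includes Fgf11, Fgf12 and Fgf13 (log2 changes 0.30, 0.40 and 0.19), which encode intracellular proteins and not secreted ligands. The gene that passed was Fgf21, a metabolic hormone of the FGF family that needs the co-receptor beta-klotho. It had 1.22, 1.19 and 1.57 in simulated microgravity, against 0.422, 0.399 and 0.412 in static cells. Fgf21 rose 3.20-fold (log2 change 1.68, limma adjusted p = 0.0464), with an adjusted p of 0.122 to 0.258 when any 1 array was left out and 0.270 with the replicate block. Next by p, Fgf17 and Fgf1 were dim, at 0.224 ± 0.0801 and 0.188 ± 0.0115 in simulated microgravity, against 0.139 ± 0.0496 and 0.155 ± 0.0120 in static cells (SD, n = 3 each), and did not pass. Fgf21 and Fgf1 were the genes of this list without overlap, both higher. They made up 12.5% of it, against 8.51% of all genes, and lower ones made up 0%, against 8.07%.

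Of 14 further receptors and co-receptors, 0 passed (limma, 2 at an unadjusted p under 0.05) and 10 had lower values, with a median of -0.16 that ran from -0.33 without static 1 to 0.045 without static 2. Those 2 were Pdgfrl, a secreted protein related to the PDGF receptors, and Sdc2, a heparan sulfate proteoglycan that presents FGFs. Pdgfrl had 0.988, 1.35 and 1.04 in simulated microgravity, against 2.29, 2.94 and 2.26 in static cells (log2 change -1.15, limma adjusted p = 0.0969). Sdc2 had 6.89, 9.59 and 8.68 in simulated microgravity, against 16.6, 17.7 and 14.7 in static cells (log2 change -0.97, limma adjusted p = 0.0915). Neither overlapped between groups. Lower values without overlap made up 14.3% of this list, against 8.07% of all genes, and higher ones 0%, against 8.51%. Pdgfrl passed with array weights, and Sdc2 did so with array weights, quantile and cyclic loess normalization. Gpc1, a glypican, overlapped, with a log2 change of -0.41 that was -0.15 without microgravity 3 and -0.64 without microgravity 2.

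Of 12 genes for the related VEGF, KIT and CSF1 receptors and ligands, 0 passed (limma, 3 at an unadjusted p under 0.05), with a median of -0.01. Vegfa, the angiogenic ligand, had 7.89 ± 0.779 in simulated microgravity and 4.88 ± 1.05 in static cells. Kitl, the ligand of KIT, had 15.1 ± 1.84 in simulated microgravity and 10.5 ± 1.49 in static cells. Vegfb had 2.28 ± 0.160 in simulated microgravity and 3.16 ± 0.151 in static cells (SD, n = 3 each). All 3 had no overlap between groups, with limma adjusted p = 0.234 to 0.294. Higher values without overlap made up 16.7% of this list, against 8.51% of all genes. Lower ones made up 8.33%, against 8.07%.

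Of 32 adaptors and cytosolic transducers, 0 passed (limma, 2 at an unadjusted p under 0.05), and 20 had higher and 12 lower values (median 0.10). The ERK-activating kinases Map2k1 and Map2k2 had log2 changes of 0.36 and 0.30, and Stat5a one of -0.59, all without overlap. Non-overlapping genes made up 6.25% of this list for higher values and 3.13% for lower ones. Both shares lay under the backgrounds of 8.51% and 8.07% of genes. Of 14 feedback inhibitors 0 passed (limma, 2 at an unadjusted p under 0.05), with 10 above 0 and a median of 0.18, which was 0.043 without microgravity 2 and 0.39 once the dimmest 50% were dropped. Spry1, an inhibitor of receptor tyrosine kinase signalling, had 16.7, 18.2 and 19.4 in simulated microgravity, against 12.0, 12.4 and 13.2 in static cells (log2 change 0.53, limma adjusted p = 0.18). Errfi1, an inhibitor of the EGF receptor, had 7.75 ± 0.334 in simulated microgravity and 5.90 ± 0.800 in static cells (SD, n = 3 each, log2 change 0.40). The phosphatase gene Ptpn1 overlapped, with a log2 change of -0.61. Among the feedback inhibitors 14.3% were higher without overlap, against 8.51% of all genes, and 0% lower, against 8.07%.

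A further list held genes induced by growth factors, all for transcription factors apart from the cyclin gene Ccnd1 (log2 change 0.22). Of its 27 measured genes, 0 passed (limma, 5 at an unadjusted p under 0.05), with 16 above 0 and a median of 0.16. Fosl1, an AP-1 subunit, had 2.38, 2.38 and 3.02 in simulated microgravity, against 1.09, 1.12 and 1.13 in static cells (log2 change 1.21, limma adjusted p = 0.0669), and passed in 6 of 20 alternatives. Atf3, a stress-induced factor, had 3.51, 2.75 and 4.48 in simulated microgravity, against 1.80, 1.87 and 1.81 in static cells (log2 change 0.94). Myc had 20.1 ± 2.27 in simulated microgravity and 13.4 ± 1.33 in static cells (SD, n = 3 each, log2 change 0.59). These were the 3 of the 27 (11.1%) with higher values and no overlap, against the background of 8.51%. Lower values without overlap were seen for 3.70%, against 8.07%.

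Of 12 enzymes that build or edit heparan sulfate, the FGF co-receptor chain, 0 passed (limma, 2 at an unadjusted p under 0.05), with a median of -0.04. Glce, the glucuronic acid epimerase, had 14.9, 15.5 and 9.43 in simulated microgravity, against 5.66, 6.86 and 8.56 in static cells (log2 change 0.90, limma adjusted p = 0.223). Its other, dimmer probe pointed the same way (log2 change 1.17). The sulfotransferases Hs2st1 and Hs6st1 had log2 changes of -0.34 and 0.87. Among these enzymes 16.7% were higher without overlap, against 8.51% of all genes, and 16.7% lower, against 8.07%.

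**Figure D3:**
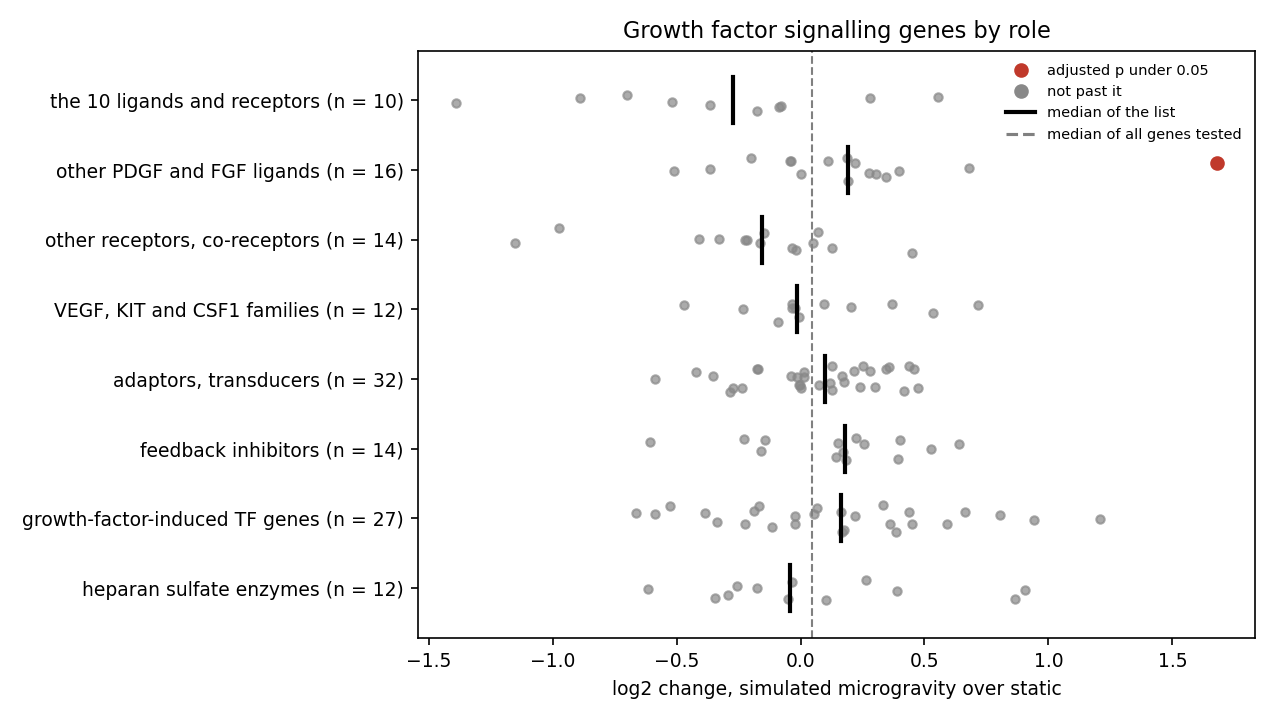
Log2 change of each measured gene (points, simulated microgravity over static), by role, with the median of each list as a black bar and the median of all genes tested as a dashed line. The vertical spread of points within a row has no meaning. Fgf21, in red, is the 1 gene past the threshold, and the median of the 10 ligands and receptors lies at -0.27.

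Marker lists of other cell types were set beside the receptor values. Genes of pericytes and smooth muscle, which carry Pdgfrb in tissue, summed to 93.8 to 109 times the array median in simulated microgravity, against 93.1 to 115 in static cells, and 0 of 8 passed (limma, 0 at an unadjusted p under 0.05). Of them Acta2, Cnn1 and Tagln were above the array median on all 6 arrays, and Rgs5, Notch3, Kcnj8, Myh11 and Mcam were below it on all 6. Endothelial and epithelial genes summed to 0.811 to 1.30 in simulated microgravity, against 0.862 to 1.06 in static cells, with 8 of 8 below the array median on all 6 arrays. Adipocyte genes (7 measured) summed to 35.9 to 41.7 in simulated microgravity, against 42.8 to 50.8 in static cells, with Lpl, Pparg and Fabp4 above the array median on all 6 arrays and Adipoq, Cd36, Cebpa and Retn below it. Chondrocyte genes (7 measured) summed to 2.68 to 3.24 in simulated microgravity, against 3.25 to 3.95 in static cells, with Acan, Comp, Matn3, Hapln1 and Chad below the array median on all 6. These 2 sums did not overlap between groups, but 0 of 7 genes passed in either list (limma, 1 adipocyte and 0 chondrocyte genes at an unadjusted p under 0.05). Of the adipocyte genes 4 had log2 changes above 0 and 3 below (median 0.03). The log2 changes were -0.78 for Lpl and -0.42 for Pparg, against 0.36 for Cebpa. Only Lpl, 1 of 7 (14.3%), did not overlap, against 8.07% of all genes with lower and non-overlapping values. The part of these lists in the receptor values was not tested. Skeletal muscle genes (7 measured) summed to 1.78 to 2.25 in simulated microgravity, against 1.48 to 2.09 in static cells, with 6 of 7 below the array median on all 6 arrays. Macrophage, osteoclast and blood genes (7 measured) summed to 11.8 to 19.7 in simulated microgravity, against 14.9 to 20.0 in static cells, with Cd14 and Lyz2 above the array median and Ptprc, Itgam and Acp5 below it on all 6.

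**Figure D4:**
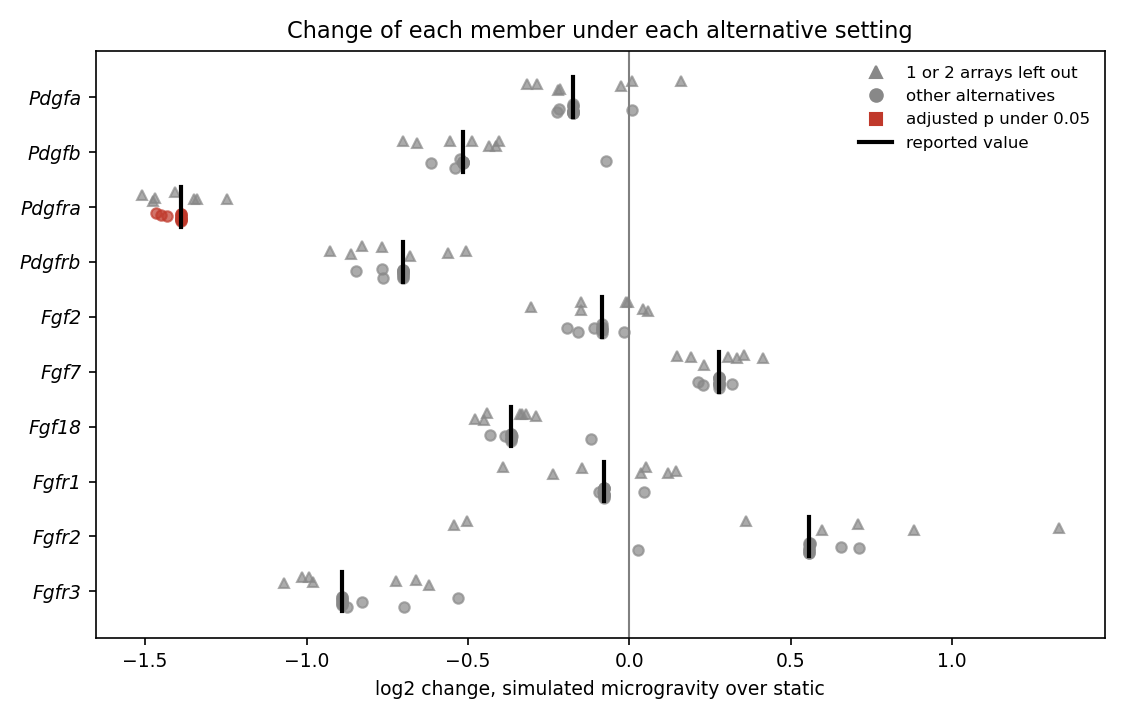
Log2 change of each gene (horizontal axis, simulated microgravity over static) under each alternative setting, with the reported value as a black bar, triangles for settings that leave arrays out and circles for the others. Red marks an adjusted p under 0.05, seen for Pdgfra only; Pdgfra lies between -1.51 and -1.25 throughout, while Pdgfa, Fgf2, Fgfr1 and Fgfr2 cross 0.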

How the data were processed

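Total RNA of 6 samples, 3 exposed to simulated microgravity and 3 static, was measured on 1 array each. The authors deposited intensities on a linear scale. Their background correction and scaling, the platform's maker and the scanner were not stated in the labels. Array medians agreed within a few percent, so the values were treated as scaled between arrays. Of 10500 probes, 8983 had 1 gene symbol in GEO's platform annotation, 1 had several and 1516 had none.

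Intensities were divided by the array's median and floored at 0.1 before log2 was taken. Left out were 354 probes, 290 at that floor on every array and the rest short of 2 values per group, leaving 10146. Groups were compared with limma 3.58.1 in R 4.3.3 (lmFit, eBayes with trend, two-sided, Benjamini-Hochberg over all 10146 probes, threshold 0.05), and the fit was tested on simulated data. A gene was represented by its brightest probe. No detection calls or control labels were used, and 3 arrays per group limit the precision. Since the labels name no separate cultures, the p-values reflect the spread between these 6 samples alone, which can be technical.

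The members and gene lists were chosen with earlier results of these data known. Named were all members, called genes and up to 3 genes with the smallest p of each pathway list, the 5 genes most correlated with the 2 members of smallest p, and Alpl and Pth1r. Osteoblast marker genes and the other marker genes above or below the array median were named from their list. Promoter windows came from RefSeq (GRCm38.p6); no coordinates of probes are given.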

Additional observations from a re-analysis of the deposited data

How the results depend on the processing

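Of 20 alternatives, 19 were planned and the one without the second array of both groups was chosen after seeing the data. The 28 probes past the threshold became 54 with quantile normalization, 57 with cyclic loess normalization, 53 with the floor at 0.05 of the median, 59 with no floor, 59 with the dimmest 25% of probes left out, 54 with the dimmest 50% left out and 115 with array weights. They were 0 with the replicate block, 0 without the second array of both groups, and 0 to 0 with any 1 of the 6 arrays left out (limma, 938, 848 and 761 to 968 at an unadjusted p under 0.05), where fewer samples remain. The count of members past the threshold was 1, Pdgfra in each case, with quantile or cyclic loess normalization, with the floor at 0.05, 0.2 or 0.5 of the median, with no floor, with the dimmest 25% or 50% left out, with robust eBayes and with array weights, and 0 in the other 10, 0 to 0 with 1 array left out.

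Log2 changes that took the other sign were small or rested on 1 array. With array weights Pdgfa was 0.0085 and Fgfr1 0.045, and without the second array of both groups Pdgfa was 0.16, Fgfr1 0.051 and Fgfr2 -0.50. With 1 array left out, Pdgfa ranged from -0.32 to 0.0097, Fgf2 from -0.30 to 0.059, Fgfr1 from -0.39 to 0.14 and Fgfr2 from -0.54 to 1.33; the cause was not tested. Pdgfra, Pdgfrb, Pdgfb, Fgf18, Fgf7 and Fgfr3 kept their sign wherever they were measured, but with the floor at 0.2 of the median Pdgfb was -0.072 and Fgf18 -0.12, against -0.52 and -0.37 as reported, since that floor lies above most of their values. Pdgfb, Fgf2 and Fgf18 gave no value with the floor at 0.5 or dim probes left out, and Fgfr2 and Fgfr3 none with the dimmest 50% left out.

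The replicate numbers are shared by both groups. Deviations from group means of same-numbered arrays correlated at -0.21, 0.45 and -0.18 for numbers 1, 2 and 3. Of these only the second arrays correlated best with each other, so the numbers were not taken to pair the samples. Across numbers, microgravity 3 and static 1 matched each other best (0.66), as did microgravity 1 and static 3 (0.38). The unpaired fit does not model such matches, and their cause was not tested. With the replicate block the adjusted p was 0.270 for Pdgfra and Fgf21. Over the alternatives, list medians ran from -0.052 to 0.17 for the VEGF, KIT and CSF1 families and 0.031 to 0.16 for adaptors and transducers. They ran from 0.016 to 0.20 for growth-factor-induced genes, Ccnd1 among them, and -0.22 to 0.098 for heparan sulfate enzymes. The medians of the VEGF, KIT and CSF1 families and of heparan sulfate enzymes changed sign. Dim probes have no detection call, which limits what can be said of Pdgfb, Fgf2 and Fgf18.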
